A study of Mus musculus with 19 samples.

Results

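The known targets of miR-146a were examined in the aged mouse hippocampus after injection of an inhibitor against it. They were Irak1, Traf6, Irak2, Relb, Card10, Numb, Smad4, Erbb4 and Med1, chosen as established targets of this microRNA. The choice was made with earlier results of these data known. They are 9 of the 48709 genes in the count files, and all 9 were among the 19286 genes with enough reads to be tested.

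MicroRNAs are short RNAs that pair through their seed, the bases near the 5′ end, with short stretches of messenger RNAs. Most such sites lie in the untranslated part behind the stop codon (3′UTR), and pairing lowers translation, RNA stability or both. miR-146a is induced by NF-kB, a family of transcription factors that switch on inflammatory genes. It is known as a brake on that pathway, since it represses the adaptor proteins that carry the signal from Toll-like and interleukin-1 receptors to NF-kB. In the brain it is found in microglia and astrocytes, among other cells. In primary mouse cultures the paper reports it as relatively enriched in microglia and also expressed in neurons. Because microRNAs repress their targets, inhibition is looked for as a rise of these targets.

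RNA sequencing was done on microdissected CA1 tissue of the dorsal hippocampus from male C57B/6J wild-type mice, in 19 libraries of 3 groups. The old anti-miR-mix mice, aged 16.5 months (n = 7), received lipid nanoparticles with a mixture of inhibitory oligonucleotides against 3 microRNAs, namely miR-146a-5p and, beside it, miR-181a-5p and miR-148a-3p. The old control mice, aged 16.5 months (n = 6), and the young mice, aged 3 months (n = 6), received nanoparticles with control oligonucleotides. Injections were made on both sides into the dorsal hippocampus, so every group had surgery, nanoparticles and an oligonucleotide. No group received the inhibitor of miR-146a-5p alone, and young mice were not given the inhibitors, so a change cannot be assigned to 1 of the 3 inhibitors. In bulk tissue, fewer cells of a type and less RNA per cell cannot be told apart.

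The sequence of the microRNA is shown first with that of its inhibitor and of the control oligonucleotide, because the expected direction of change follows from their pairing. Capitals mark the seed of miR-146a-5p (bases 2 to 8) and, in the inhibitor, its complement. The mature microRNA was taken from RefSeq, at chr11:43374435-43374456 on the minus strand of GRCm38.p6, and the oligonucleotides from the study's list of reagents.
miR-146a-5p: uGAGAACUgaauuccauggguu
Inhibitor of miR-146a-5p: acccatggaattcAGTTCTC
Control oligonucleotide: taacacgtctatacgccca
The inhibitor of 20 bases was complementary to bases 2 to 21 of the 22 bases of the microRNA, the seed included. The control oligonucleotide did not hold the complement of the seed.

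The 3′UTRs of the 9 targets were then searched for the seed match. The motifs were AGTTCTCA (8 bases), AGTTCTC or GTTCTCA (7 bases) and GTTCTC (6 bases), the shorter contained in the longer, on the transcript's own strand in the longest 3′UTR annotated for each gene. Of the 9 targets, 8 held at least 1 match of 8 bases, as did 691 of the 15351 tested genes with an annotated 3′UTR (4.5%). Of the 9 longest 3′UTRs 8 were longer than the median of these genes (1165 bases), and a longer 3′UTR has more room for a match. The targets had been chosen by earlier knowledge in which such matches play a part, so the count describes them and was not tested. An 8-base match of each target is listed here in GRCm38 coordinates with the match in capitals, for every target that holds one except Smad4, and for Irak1 both.
Irak1 (chrX:74015393-74015415, minus strand): agactcagaggtcaaAGTTCTCA
Irak1 (chrX:74015377-74015399, minus strand): gttctcatgcttggaAGTTCTCA
Traf6 (chr2:101697944-101697966, plus strand): accgctctggtgttgAGTTCTCA
Irak2 (chr6:113694251-113694273, plus strand): gccggtgtctccgcaAGTTCTCA
Card10 (chr15:78775583-78775605, minus strand): cacaccctggaatagAGTTCTCA
Numb (chr12:83794813-83794835, minus strand): tagaatattttaaatAGTTCTCA
Erbb4 (chr1:68032381-68032403, minus strand): taggctttttgaggtAGTTCTCA
Med1 (chr11:98153914-98153936, minus strand): tttgagtgcaacagaAGTTCTCA
All of these stretches lie in a 3′UTR exon and end at the base opposite base 1 of the microRNA. The 2 matches of Irak1 lay so close to each other that the shown stretches overlap.

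**Figure D1:**
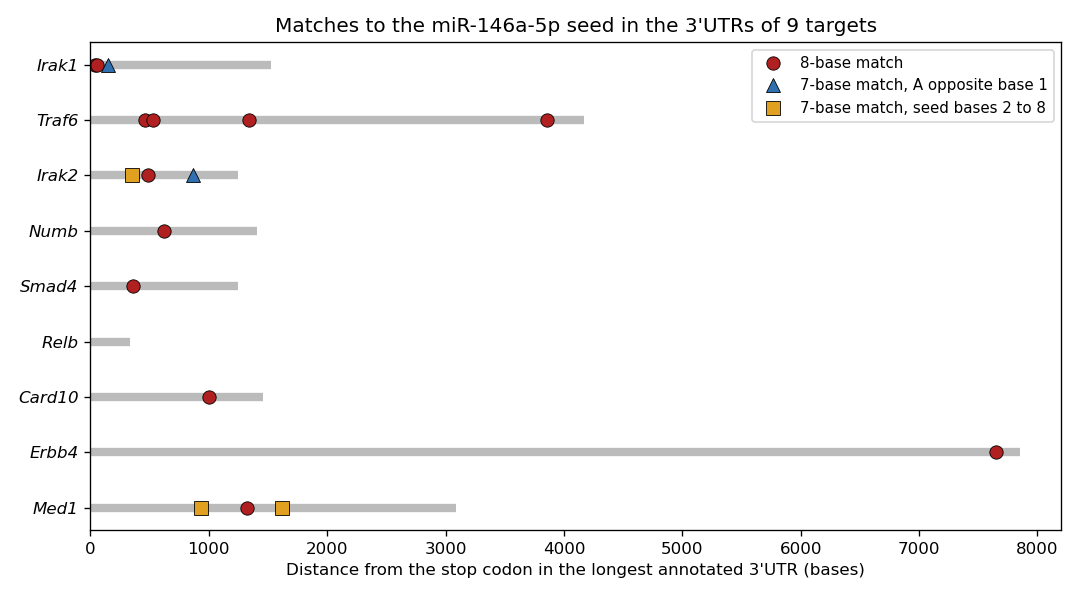
Matches of 7 or 8 bases to the miR-146a-5p seed along the longest annotated 3′UTR of each of the 9 targets, drawn to scale as grey bars, with the distance from the stop codon in bases. Traf6 held 4 matches of 8 bases and Irak1 held 2, while the short 3′UTR of Relb (336 bases) held none of 7 or 8 bases.

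The number of matches differed among the targets. Traf6 had 4 matches of 8 bases in 4170 bases. Irak1 had 2 matches of 8 bases and 1 of 7 bases in 1526 bases, all near the stop codon. Irak2 had 1 match of 8 bases and 2 of 7 bases in 1246 bases, and Med1 had 1 and 2 in 3086 bases. Card10, Numb, Smad4 and Erbb4 each had 1 match of 8 bases, which in Erbb4 lay near the far end of a 3′UTR of 7855 bases (the plot of matches along the 3′UTRs). Relb had only a 6-base match, a kind that 33.2% of the 15351 genes held in this form or a longer one. The mixture also blocked miR-148a-3p and miR-181a-5p, so their seed matches of 7 or 8 bases were counted as well. Such matches to miR-148a-3p were found in 1 of the 9 targets (Med1) and in 21.9% of genes. Those to miR-181a-5p were found in 2 of the 9 (Traf6 and Numb) and in 23.2% of genes.

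Libraries held between 26653511 and 38908947 reads assigned to genes. Neurons, astrocytes, oligodendrocytes and microglia were all represented by their markers, and of the 5 choroid plexus markers 4 could be tested. Old control replicates 5 and 6 were closer to each other than any other pair within a group, with a chi-square per degree of freedom of 2.18 over 12780 genes where the next pair had 6.1. Each has its own label and both were kept, and results were also computed with both as 1 library. The deposited log2 table carried a whole number from 1 to 4 per library, called the processing group here, whose origin is not described. Processing group 3 held no old control library. miR-146a itself could not be followed in these libraries of polyadenylated RNA, since its gene Mir146 had 0 or 1 reads per library. By quantitative PCR after the behavioural tests, the paper reports that the microRNAs targeted by the mixture were still lowered in the injected CA region of old mice. It reports no effect on them in the dentate gyrus. Those measurements were not examined here.

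All 9 targets were expressed at levels that permit a comparison, from 170 reads (Card10) to 4773 reads (Erbb4) per library. Reads scaled to exon length and library size (RPKM), which allow for gene length, put Irak1 first with a mean level of 14.8 over the 19 libraries. Smad4 (11.4), Erbb4 (10.4) and Numb (8.76) followed, and then Med1 (6.95), Traf6 (3.81), Irak2 (3.24), Relb (2.29) and Card10 (1.6). On this scale the ranges of neighbouring genes over the 19 libraries did not meet between Irak1 and Smad4, between Numb and Med1 and between Med1 and Traf6. The other neighbours in the order had overlapping ranges, although Traf6 was above Irak2, Irak2 above Relb and Relb above Card10 in 19 of 19 libraries. All other levels below are log2 CPM (counts scaled by the size of each library), which are compared only between libraries.

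To ask whether the RNA of these targets was higher after the inhibitors, old anti-miR-mix libraries were compared with old control libraries. RNA levels of whole tissue cannot show a release of translation alone, and a rise in a minority of cells would be diluted in them. No target passed the test for a rise. In edgeR's quasi-likelihood test with Benjamini-Hochberg adjustment over all tested genes, 0 of 9 passed an adjusted p of 0.05, against 0.669% of the 19286 genes (129 genes, all of them higher). In the 1-sided test for a rise 0 of 9 passed, against 1.15% of genes. At an unadjusted p under 0.05 the counts were 0 of 9 in both tests, against 10.5% of genes in either (7.16% higher and 3.35% lower in the 2-sided test). DESeq2 also passed 0 of 9. Of the 9 log2 fold changes, 5 were above 0 and 4 below, where 50.2% of all genes were above 0. Their median was 0.002, and the median size of the difference was 0.015, against 0.067 over all tested genes.

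The 3 signalling proteins that stand between the receptors and NF-kB, Irak1, Irak2 and Traf6, are the targets for which the microRNA is best known. Irak1 and Irak2 are interleukin-1 receptor-associated kinases and Traf6 is the ubiquitin ligase they hand the signal to. Levels are given as lowest, median and highest log2 CPM of a group. Irak1 (ENSMUSG00000031392) had 6.04, 6.12 and 6.14 in young, 6.10, 6.15 and 6.17 in old control and 6.05, 6.15 and 6.21 in old anti-miR-mix libraries. The old anti-miR-mix range enclosed that of the old control libraries, and their medians were equal. The log2 fold change was -0.007 ± 0.028 (SE, n = 7 and 6; edgeR adjusted p = 0.961). Its 95% interval ran from -0.07 to 0.05, the narrowest of the 9, and its upper bound was a rise of 3.7%.

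Traf6 (ENSMUSG00000027164) had 4.83, 4.90 and 5.10 in young, 4.81, 4.89 and 4.98 in old control and 4.81, 4.93 and 5.04 in old anti-miR-mix libraries. The ranges nearly coincided, and young replicate 4 was the highest of the 19 libraries. The log2 fold change was 0.015 ± 0.050 (SE, n = 7 and 6; edgeR adjusted p = 0.951), with a 95% interval from -0.09 to 0.12. The target with the most 8-base matches thus had an upper bound of a rise of 8.5% in its RNA level in the tissue.

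Irak2 (ENSMUSG00000060477) had 3.63, 3.70 and 4.04 in young, 3.57, 3.86 and 3.95 in old control and 3.87, 3.94 and 3.98 in old anti-miR-mix libraries. All 7 old anti-miR-mix libraries lay above the old control mean and 3 of them above every old control library. The log2 fold change was 0.10 ± 0.066 (SE), with a 95% interval from -0.04 to 0.24 (edgeR adjusted p = 0.65, and 0.569 in the 1-sided test for a rise). The old anti-miR-mix libraries were close together, with an SD of 0.039 against 0.146 in old control and 0.148 in young libraries, and this difference in spread was not tested. Without old control replicate 3, the lowest of the 19 libraries, the log2 fold change was 0.049, and with processing group as a factor 0.046.

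**Figure D2:**
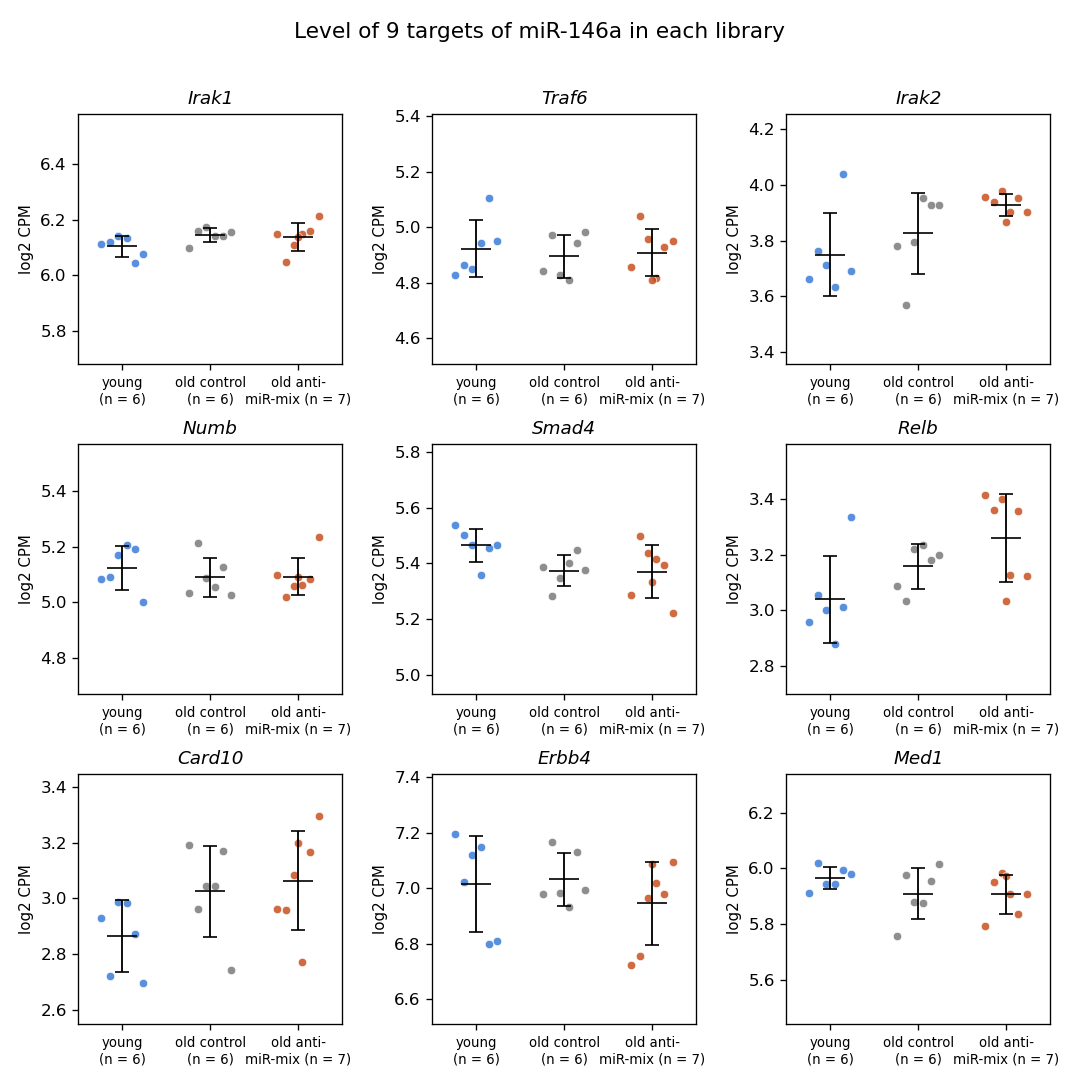
Level of each of the 9 targets in each library (log2 CPM, 1 point per library), with the mean and SD of each group in black, on axes that span the same number of log2 units. In every panel the old anti-miR-mix and old control libraries overlap, and the 7 old anti-miR-mix values of Irak2 are close together between 3.87 and 3.98.

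Relb and Card10 act further on the way to NF-kB. Relb is a subunit of NF-kB that serves its alternative branch, and Card10 (also known as CARMA3) is a scaffold that links surface receptors to the kinases of NF-kB inhibitors. Relb (ENSMUSG00000002983) had 2.88, 3.00 and 3.34 in young, 3.03, 3.19 and 3.24 in old control and 3.03, 3.36 and 3.42 in old anti-miR-mix libraries. Of the old anti-miR-mix libraries, 4 lay above every old control library, while the other 3 lay within their range. It had the highest log2 fold change of the 9, 0.11 ± 0.078 (SE), with a 95% interval from -0.05 to 0.27 (edgeR adjusted p = 0.67, and 0.598 in the 1-sided test for a rise). The upper bound was a rise of 20.6%, the widest allowance among the 9, for the target that holds no match of 7 or 8 bases.

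The difference of Relb was not the same in each processing group. It was 0.27 in group 1 (1 old anti-miR-mix library and 2 old control libraries), -0.028 in group 2 (2 and 2) and -0.10 in group 4 (1 and 2), and 3 of the 4 high old anti-miR-mix libraries were in group 3, which has no old control. That of Irak2 was 0.10, 0.14 and 0.028 in the same 3 groups. Irak2 was thus higher in each processing group that could be compared, and Relb in 1 of 3. With processing group as a factor in the fit the log2 fold change of Relb was 0.064 (edgeR adjusted p = 0.901).

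Card10 (ENSMUSG00000033170) had 2.70, 2.90 and 2.99 in young, 2.74, 3.04 and 3.19 in old control and 2.77, 3.09 and 3.30 in old anti-miR-mix libraries. It was the lowest expressed and among the most variable of the targets, and the old groups overlapped over most of their range. The log2 fold change was 0.035 ± 0.087 (SE, n = 7 and 6; edgeR adjusted p = 0.932), with a 95% interval from -0.14 to 0.21.

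The other 4 targets belong to other pathways. Numb is an inhibitor of Notch signalling that is divided unequally between daughter cells. Smad4 is the partner that the receptor-activated SMAD proteins of TGF-beta and BMP signalling share. Erbb4 is a receptor tyrosine kinase for neuregulins, found in the hippocampus mainly in inhibitory interneurons, and Med1 is a subunit of the Mediator complex that connects transcription factors with RNA polymerase II. Numb (ENSMUSG00000021224) had 5.00, 5.13 and 5.21 in young, 5.03, 5.07 and 5.21 in old control and 5.02, 5.08 and 5.23 in old anti-miR-mix libraries. Smad4 (ENSMUSG00000024515) had 5.36, 5.47 and 5.54 in young, 5.28, 5.38 and 5.45 in old control and 5.22, 5.39 and 5.50 in old anti-miR-mix libraries. Both showed the same medians in the old groups to within 0.02, and young medians above them.

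Erbb4 (ENSMUSG00000062209) had 6.80, 7.07 and 7.20 in young, 6.93, 6.99 and 7.17 in old control and 6.72, 6.98 and 7.09 in old anti-miR-mix libraries. Med1 (ENSMUSG00000018160) had 5.91, 5.96 and 6.02 in young, 5.76, 5.92 and 6.02 in old control and 5.79, 5.91 and 5.98 in old anti-miR-mix libraries. Of these 4 genes Erbb4 had the largest difference between the old groups, and it was downward, with 2 old anti-miR-mix libraries below every old control library. Its log2 fold change was -0.08 ± 0.072 (SE, n = 7 and 6; edgeR adjusted p = 0.749), with a 95% interval from -0.23 to 0.07. It was -0.050 without old anti-miR-mix replicate 1, -0.053 without replicate 3 and -0.041 with processing group as a factor. Those of Numb (0.002), Smad4 (-0.001) and Med1 (-0.003) lay close to 0, and their intervals had upper bounds of a rise of 6.4%, 6.1% and 5.8%. Summed inhibitory neuron markers ranged from 988 to 1050 CPM in old control and from 889 to 1090 CPM in old anti-miR-mix libraries. Over the 19 libraries the log2 of this sum had a Pearson's correlation of -0.22 with Erbb4, given as a description. The part of these markers in the values of Erbb4 was not tested.

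**Figure D3:**
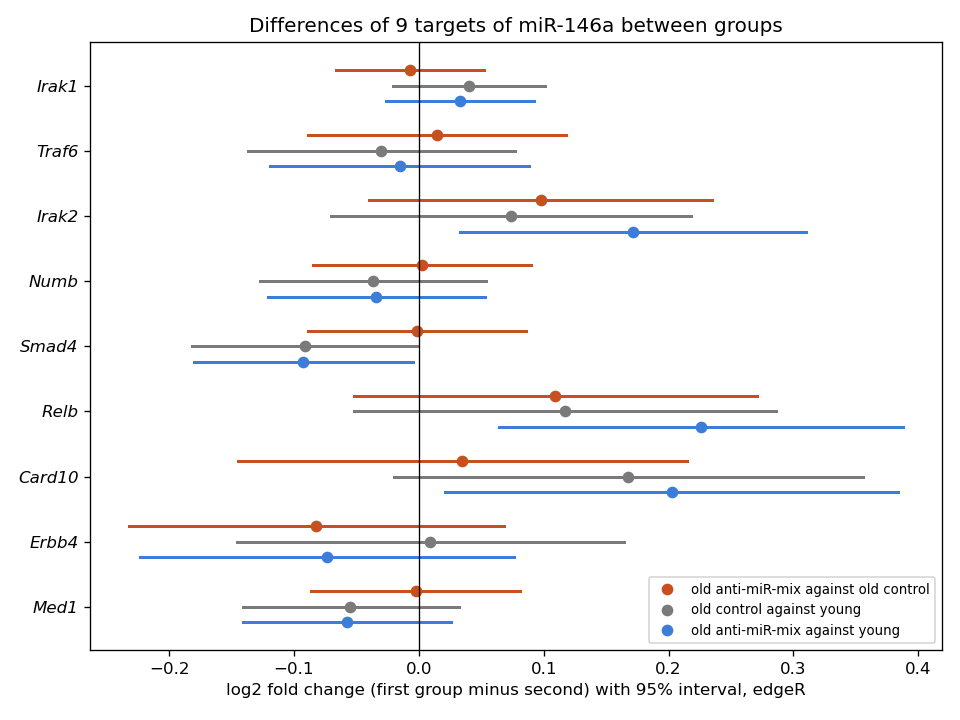
Log2 fold changes of the 9 targets in 3 comparisons with their 95% intervals from edgeR, where points right of 0 are higher in the first group named. All 9 intervals of old anti-miR-mix against old control include 0, while those of old anti-miR-mix against young lie above 0 for Irak2, Relb and Card10 and below 0 for Smad4.

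To see whether the targets differ with age, for example lower in old mice, old control libraries were compared with young ones. No target passed the adjusted threshold, with 0 of 9 against 2.67% of all tested genes (514 genes, 1.32% higher and 1.34% lower). At an unadjusted p under 0.05 there was 1 of 9, against 18.1% of genes (9.14% higher and 8.92% lower), and DESeq2 passed 0 of 9 after adjustment. That gene was Smad4, with a log2 fold change of -0.09 ± 0.043 (SE; n = 6 and 6; edgeR adjusted p = 0.274). Its sign did not change in 21 alternatives, but its unadjusted p was under 0.05 in only 5 of them. All 6 old control libraries lay below the young mean, yet only 2 lay below every young library. Smad4 was lower in each of the 3 processing groups that held both, with differences of -0.155, -0.105 and -0.039. Card10 had the largest difference, 0.17 ± 0.090 (SE), with a 95% interval from -0.02 to 0.36 (edgeR adjusted p = 0.336). Relb had 0.12 ± 0.081 (SE, n = 6 and 6; edgeR adjusted p = 0.483) and Irak2 had 0.07 ± 0.069 (SE, n = 6 and 6; edgeR adjusted p = 0.621). The other 5 targets lay between -0.05 (Med1) and 0.04 (Irak1). Of 6 oligodendrocyte markers 4 were lower in old control than in young libraries (edgeR adjusted p under 0.05), at 6270 to 7450 against 7090 to 11200 CPM in sum, and of 10 microglial markers 1 was higher, and their part in these values was not tested.

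Old anti-miR-mix libraries were also compared with young libraries, a contrast in which age and treatment cannot be told apart and which shares its samples with the other comparisons. No target passed the adjusted threshold (0 of 9, against 6.2% of genes, with 4.57% higher and 1.63% lower). At an unadjusted p under 0.05 there were 4 of 9, against 19.6% of genes, namely 3 higher (11.3% of genes) and 1 lower (8.31% of genes). Relb was higher by 0.23 ± 0.078 (SE; n = 7 and 6; edgeR adjusted p = 0.094), Card10 by 0.20 ± 0.087 (edgeR adjusted p = 0.192) and Irak2 by 0.17 ± 0.066 (edgeR adjusted p = 0.142). Smad4 was lower, at -0.09 ± 0.042 (SE; n = 7 and 6; edgeR adjusted p = 0.221). For Relb, Irak2 and Card10 the group means were lowest in young and highest in old anti-miR-mix libraries, and neither step passed the adjusted threshold in any of the fits run.

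Whether Relb and Irak2 passed the adjusted threshold depended on single libraries. Their signs did not change in 22 alternatives, and their unadjusted p was under 0.05 in 22 of them. For Card10 it was so in 14 and for Smad4 in 12. Young replicate 2 was the highest young library for Relb (3.34), and without it the log2 fold change of Relb was 0.30 (edgeR adjusted p = 0.0175). Young replicate 4 was the highest young library for Irak2 (4.04), and without it the log2 fold change of Irak2 was 0.24 (edgeR adjusted p = 0.0172). Relb also passed without old anti-miR-mix replicate 7, with 0.26 (edgeR adjusted p = 0.0485). Old anti-miR-mix replicate 7 was the lowest of its group for both genes. In each processing group Irak2 was higher in old anti-miR-mix than in young libraries, by 0.057 to 0.29, while Relb was higher in 3 of the 4 and lower by 0.26 in group 2. In no comparison did the groups of a target stand fully apart, a pattern found in 0.498% of genes between the old groups, in 2.54% between old control and young and in 2.42% between old anti-miR-mix and young.

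The pathways these targets act in were examined through 7 lists of other genes, of which 124 could be tested. The lists, too, were chosen with earlier results of these data known. In each comparison their shares therefore describe them and were not tested against the shares of all genes. Between the old groups 6 of the 124 were higher and 0 lower at an edgeR adjusted p under 0.05 (4.84%, against 0.669% of all genes). At an unadjusted p under 0.05, 27 were higher and 2 lower, where 7.16% of all genes were higher and 3.35% lower. The 6 genes belonged to 3 lists. Among 26 receptor and adaptor genes of Toll-like and interleukin-1 signalling, 2 were higher, and their median log2 fold change was 0.12. Among 15 inflammatory genes that NF-kB induces, 2 were higher with a median of 0.34, and among 19 genes of TGF-beta and BMP signalling 2 were higher with a median of 0.013. None of 23 NF-kB subunits, inhibitors and kinases, 16 Notch genes, 9 ERBB receptors and ligands or 16 Mediator subunits passed, with medians of 0.12, -0.024, -0.029 and -0.006. At an unadjusted p under 0.05 these 4 lists had 6, 0, 0 and 0 higher genes and no lower one. The median over all genes tested was 0.

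**Figure D4:**
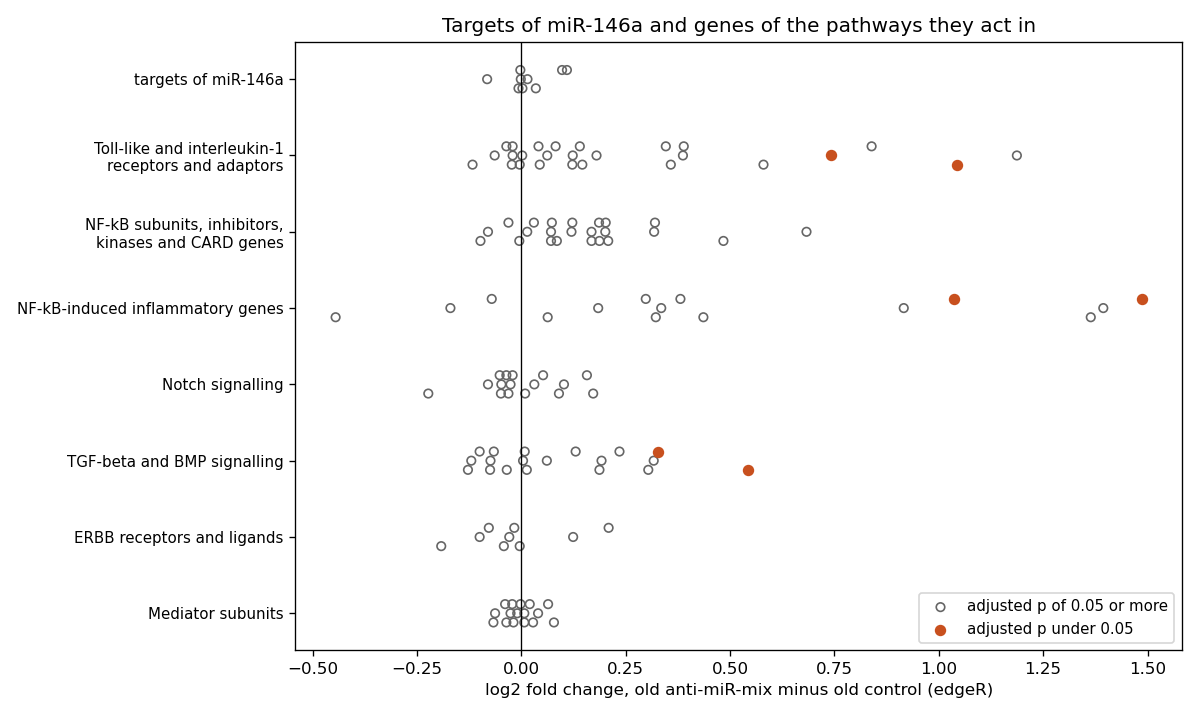
Log2 fold changes between old anti-miR-mix and old control libraries for the 9 targets and for 124 other genes of the pathways they act in, 1 point per gene, from edgeR. Filled points passed an adjusted p under 0.05: 0 of the 9 targets and 6 pathway genes, all to the right of 0.

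The genes that passed were receptors, ligands and an adaptor. Tlr7, an endosomal receptor for single-stranded RNA, had 1.97, 2.10 and 2.43 in old control and 2.39, 3.06 and 3.29 in old anti-miR-mix libraries (log2 fold change 0.74 ± 0.144, SE; edgeR adjusted p = 0.0217). Ticam2, an adaptor of the endotoxin receptor, had -1.86, -1.08 and -0.83 in old control and -0.50, -0.29 and 0.23 in old anti-miR-mix libraries, with no overlap (1.04 ± 0.194, SE; edgeR adjusted p = 0.0159). Its level was low, and on the deposited log2 values its difference was 0.376 (limma adjusted p = 0.00976). The chemokine Cxcl16 had 0.79, 1.31 and 1.78 in old control and 1.43, 2.43 and 3.05 in old anti-miR-mix libraries (1.04 ± 0.232, SE; edgeR adjusted p = 0.0402). The chemokine Ccl3 was the other inflammatory gene that passed, with a log2 fold change of 1.49 ± 0.338 (SE; edgeR adjusted p = 0.0439). Tgfb1, the ligand upstream of Smad4, had 1.91, 2.11 and 2.33 in old control and 2.24, 2.72 and 2.90 in old anti-miR-mix libraries (0.54 ± 0.114, SE; edgeR adjusted p = 0.027). Its receptor Tgfbr2 had a log2 fold change of 0.33 ± 0.076 (SE; edgeR adjusted p = 0.0477).

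None of these 6 calls remained with processing group as a factor in the fit, where the log2 fold changes of Tlr7, Ticam2, Cxcl16 and Tgfb1 were 0.50, 0.93, 0.67 and 0.41 (edgeR adjusted p from 0.116 to 0.294). The count of 6 fell to 0 or 1 without old control replicate 1, 2, 5 or 6 and without old anti-miR-mix replicate 2, 3, 4 or 5, and to 1 with old control replicates 5 and 6 as 1 library. Calls over all genes fell alongside, from 129 to 9 with processing group as a factor. They numbered 28 with replicates 5 and 6 as 1 library, and 23 to 42 without 1 of the libraries just named. Microglia, the immune cells of brain tissue, express many of the pathway genes. The summed level of 10 microglial markers was 359 to 457 CPM in young, 449 to 523 CPM in old control and 512 to 684 CPM in old anti-miR-mix libraries. Of the 10 markers 4 were higher between the old groups, and 9 were higher in old anti-miR-mix than in young libraries (edgeR adjusted p under 0.05). Their part in the pathway genes, in Relb and in Irak2 was not tested. Endothelial markers were at 194 to 242 CPM in all libraries, and none of the 8 passed in any comparison. Of the 6 oligodendrocyte markers 6 were higher between the old groups at an unadjusted p under 0.05 (median log2 fold change 0.25), against 7.16% of all genes. Their sum was 6270 to 7450 CPM in old control and 6380 to 9410 CPM in old anti-miR-mix libraries. Of the 7 astrocyte markers 3 were higher at that unadjusted p (median 0.10), and no marker of either list passed the adjusted threshold. Their part was not tested either.

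**Figure D5:**
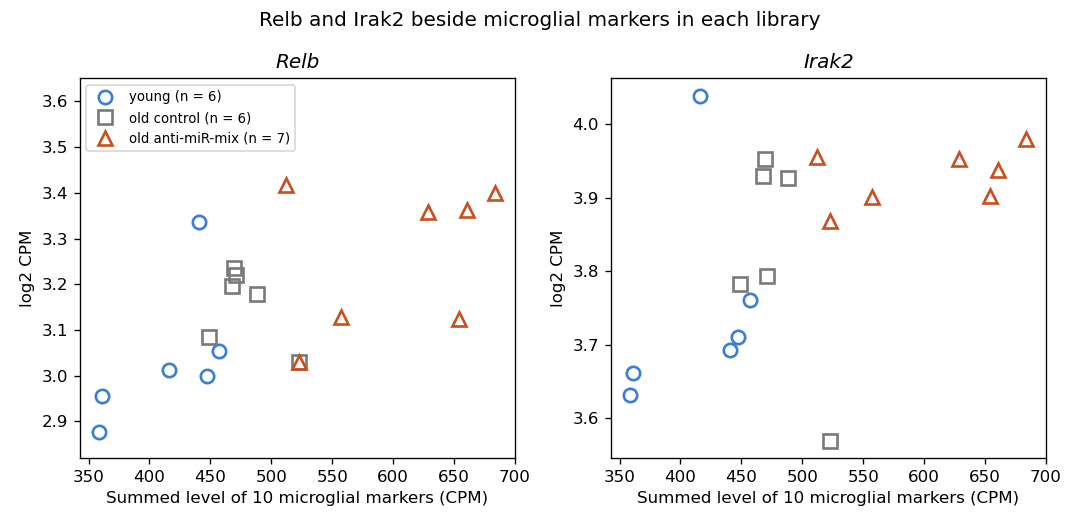
Levels of Relb and Irak2 (log2 CPM) against the summed level of 10 microglial markers (CPM) in each of the 19 libraries. Old anti-miR-mix libraries lie at 512 to 684 CPM, overlapping the old control libraries at up to 523 CPM, and among them Relb ranges from 3.03 to 3.42 while Irak2 stays between 3.87 and 3.98.

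With age the same lists showed 2 genes higher and 3 lower in old control than in young libraries (4.03%, against 2.67% of all genes). Heyl, a Notch effector, and Jag1, a Notch ligand, were higher, with log2 fold changes of 0.65 ± 0.152 (SE; edgeR adjusted p = 0.0251) and 0.37 ± 0.093 (SE; edgeR adjusted p = 0.0364). Heyl had 1.27, 1.79 and 1.96 in young and 1.76, 2.43 and 2.76 in old control libraries. The lower genes were Chuk (-0.19 ± 0.047, SE; edgeR adjusted p = 0.0338) and Ikbkb (-0.16 ± 0.040, SE; edgeR adjusted p = 0.0384), the catalytic kinases that release NF-kB from its inhibitors, and Traf3 (-0.14 ± 0.035, SE; edgeR adjusted p = 0.0393), a brake on its alternative branch. Of these 5 genes only Chuk held an 8-base match to miR-146a-5p in its longest 3′UTR. Genes with such a match were lower with age in 1.74%, against 1.64% of all genes with a 3′UTR. With processing group as a factor 1 of these 5 calls remained, that of Heyl (edgeR adjusted p = 0.029), and the others had adjusted p from 0.0652 to 0.0905. The call of Heyl was lost with old control replicates 5 and 6 as 1 library (edgeR adjusted p = 0.056) and with both changes (0.0767). Leaving out young replicate 4 or old control replicate 1 removed all 5 calls, and leaving out young replicate 1, 2, 3 or 5 or any other single old control replicate left 1 to 3 of them.

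Between old anti-miR-mix and young libraries 20 of the 124 genes were higher and 2 lower (17.7%, against 6.2% of all genes). The receptor and adaptor list held 9 of the higher genes, among them the receptors Tlr2, Tlr4, Tlr7 and Tlr9 and the kinase Irak4, which activates Irak1. Tlr9, a receptor for unmethylated DNA, had 0.93, 1.21 and 1.64 in young and 1.70, 1.90 and 2.14 in old anti-miR-mix libraries, with no overlap (log2 fold change 0.66 ± 0.115, SE; edgeR adjusted p = 0.000981). Ccl3 had -1.60, -0.87 and 0.37 in young and -0.14, 1.36 and 1.86 in old anti-miR-mix libraries (1.98 ± 0.354, SE; edgeR adjusted p = 0.0012). Tgfbr2 had 4.20, 4.32 and 4.50 in young and 4.50, 4.80 and 5.08 in old anti-miR-mix libraries (0.47 ± 0.076, SE; edgeR adjusted p = 0.000536). The lower genes were Tollip, an inhibitor of interleukin-1 receptor signalling (-0.13 ± 0.035, SE; edgeR adjusted p = 0.0325), and Traf3 (-0.14 ± 0.034, SE; edgeR adjusted p = 0.0122). Tollip passed by a narrow margin, and its call was lost in 8 of the 13 fits without 1 library (without young replicate 1, 3, 4 or 6 or old anti-miR-mix replicate 2, 3, 6 or 7), with adjusted p up to 0.0883. It was also lost with only these groups fitted (0.0571), without a filter (0.0851), with old control replicates 5 and 6 as 1 library (0.0506) and on the deposited log2 values (0.0623). Of the 22 calls 21 remained with processing group as a factor and 15 to 22 without 1 library. Microglial markers were also higher in this contrast, as given above.

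The genes whose levels most resembled each target were sought over the 19 libraries among 15960 genes, by Pearson's correlation of log2 CPM. The libraries share groups and processing groups, so the values are a description. Relb was closest to Cotl1 (0.897) and Mapkapk2 (0.853), and Irak2 to Cebpb (0.8) and Map3k11 (0.782). Traf6 was closest to Egr2 (0.818) and Ocln (0.806), and Irak1 to Dclre1a (0.861) and Rdh11 (0.817). Card10 was closest to Acer2 (0.85) and Rttn (0.84). Outside the NF-kB pathway, the closest genes were Slc38a9 (0.85) and Mrpl20 (0.823) for Numb, and Prr14l (0.762) and Akap10 (0.76) for Smad4. They were Pcdh10 (0.925) and Oxr1 (0.914) for Erbb4, and Caprin1 (0.906) and Nipbl (0.892) for Med1. No target was the closest gene of another. Among the 9 the strongest positive value was that of Irak2 and Relb (0.55), and the strongest negative ones were those of Irak1 with Smad4 (-0.7) and of Relb with Erbb4 (-0.69).

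The seed match was finally compared over all tested genes with an annotated 3′UTR. Of the 691 genes with an 8-base match to miR-146a-5p, 4 were higher between the old groups (0.579%) and 0 lower, against 127 of 15351 genes (0.827%) and against 93 of the 10253 genes with no match of 6 bases or more (0.907%). The 4 genes were Axl, C3ar1, Dock8 and Plek. The median log2 fold change was -0.016 in genes with an 8-base match, 0.005 in genes without any match and 0 in all. Among the 684 genes with at least 2 matches of 7 or 8 bases, as in Traf6, Irak1, Irak2 and Med1, 7 were higher (1.02%) with a median of -0.017.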

How the data were processed

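RNA of hippocampal CA1 tissue was sequenced in 19 libraries, grouped by the descriptions in the labels. In both other groups than old anti-miR-mix, titles also start with anti-miR-mix, the name of the experiment. The members and gene lists were chosen with earlier results of these data known. The authors deposited 1 file of raw counts for each library, by Ensembl gene. Per the labels, TruSeq RNA v2 libraries, a kit that does not mark strand, gave single-end reads of 50 bases. Per the submitters' processing notes, FastQC 0.11.5, STAR 2.5.2b and featureCounts of Subread 1.5.1 were used with mm10, and options for reads with several alignments are not given in the sources used here. The authors also deposited log2 values for 18761 genes, which equalled log2(CPM + 1) less a slope per gene times a whole number per library (largest residual 3.4e-08). They were used only for those numbers and in 1 alternative. The number of value columns without a sample was 0.

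A gene was tested if 50% or more of the libraries had 5 or more reads of it. Counts were scaled by TMM and tested with edgeR 4.0.16 (R 4.3.3), quasi-likelihood, with the 3 groups in 1 fit, no covariate, and Benjamini-Hochberg adjustment over 19286 genes at a threshold of 0.05. A rise was tested 1-sided from the same statistic. SEs and 95% intervals were derived from the same fit, and the script was tested on simulated data. Log2 CPM used a prior count of 2. P-values measure the spread between these samples, which may be technical where nothing in the labels states separate animals. Alternatives were DESeq2 1.42.0, RLE factors, no filter, 2 groups only, a replicate block, processing group as a factor, old control replicates 5 and 6 as 1 library, limma 3.58.1 on the deposited values and each library left out. The fit with both processing group and replicates 5 and 6 as 1 library was chosen after seeing the data. All 9 members were named, and of the pathway genes up to 4 higher and 4 lower by adjusted p in each comparison. Ccl3 and Tgfbr2 between the old groups, and other genes given only by symbol, were named after their values were seen. Sites were counted on 3′UTRs of GENCODE M21 (GRCm38). Reads of overlapping genes can be exchanged. Gm43963 shares 196 exon bases with Irak2 and had 1 to 12 reads per library, and Gm46367 shares 166 with Numb.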

Additional observations from a re-analysis of the deposited data

Results flagged for a closer look

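Each of the 27 combinations of target and group was checked for a highest or lowest library far from the rest, relative to the range of its group, and 2 stood out, where chance alone gives about 1 in 20. The highest young value of Irak2, in replicate 4, was 4.04 log2 CPM against 3.76 for the next library, a gap of 0.684 of the range. Without that library the log2 fold change of Irak2 between old control and young was 0.14 (edgeR adjusted p = 0.261) in place of 0.07. The highest old anti-miR-mix value of Numb, in replicate 2, was 5.23 log2 CPM against 5.10 for the next library, a gap of 0.635 of the range. Without it the log2 fold change of Numb between the old groups was -0.022 (edgeR adjusted p = 0.943) in place of 0.002.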

How the results depend on the processing

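The count of targets past the threshold between the old groups, and the count that rose in the 1-sided test, was 0 under every alternative run, and so was the count between old control and young. Between old anti-miR-mix and young it was 0 to 1 with 1 library left out and 0 under the others. Pathway genes past the threshold between the old groups (6) numbered 2 with only these groups fitted, 0 with processing group as a factor, 1 with old control replicates 5 and 6 as 1 library, 0 with both, and 0 to 9 with 1 library left out. Over all genes the same fits gave 48, 9, 28, 4 and 23 to 247 calls in place of 129. With age the pathway genes (5) numbered 8 in DESeq2, 1 without a filter and 3 with processing group as a factor (1 of the 5, Heyl). They numbered 1 with replicates 5 and 6 as 1 library (Traf3), 1 with both (0 of the 5), and 0 to 5 with 1 library left out. Over all genes these fits gave 914, 323, 371, 290, 221 and 212 to 691 calls in place of 514. Replicate numbers are shared by the groups, and deviations from the group mean correlated at -0.17 to 0.214 between samples with the same number. Samples with different numbers were not compared in this way, so these values cannot decide whether the numbers mark a block. With the replicate block 249 genes passed between the old groups in place of 129 and 0 of the 9 targets did. Under it the calls of Jag1 (adjusted p = 0.0538) and Traf3 (0.0664) with age, and of Tollip (0.0523) and Traf3 (0.052) between old anti-miR-mix and young, were lost in edgeR. An 8-base match was found in 8 of the 9 targets also when any annotated 3′UTR was counted.

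Targets near 0 changed sign without reaching the threshold. Between the old groups Irak1 was 0.012 with processing group as a factor, 0.013 on the deposited log2 values, 0.011 with processing group and replicates 5 and 6 as 1 library, and -0.020 to 0.006 with 1 library left out. Traf6 was -0.040 with processing group, -0.003 with replicates 5 and 6 as 1 library, -0.051 with both, and -0.011 to 0.032 with 1 library left out. Numb was -0.001 in DESeq2, with RLE factors, without a filter and with both corrections, -0.005 with only these groups, -0.004 with replicates 5 and 6 as 1 library, and -0.022 to 0.025 with 1 library left out. Smad4 was 0.004 with the replicate block, 0.015 on the deposited values and -0.026 to 0.022 with 1 library left out. Med1 was 0.017 on the deposited values and -0.032 to 0.019 with 1 library left out, and Card10 was -0.017 to 0.079. With age Traf6 was 0.001 with processing group, 0.017 with both corrections and -0.048 to 0.014 with 1 library left out. Erbb4 was -0.029 with processing group, 0.000 with both corrections and -0.028 to 0.050. Between old anti-miR-mix and young Traf6 was 0.001 with the replicate block and -0.035 to 0.027 with 1 library left out. The signs of Irak2, Relb and, between the old groups, Erbb4 were the same in all alternatives, with ranges between the old groups of 0.046 to 0.121 for Irak2, 0.064 to 0.144 for Relb and -0.107 to -0.041 for Erbb4. The cause of these differences was not tested. SEs between the old groups ran from 0.028 (Irak1, 1787 to 2586 reads per library) to 0.087 (Card10, 170 to 343 reads), and did not follow the reads alone, with 0.072 for Erbb4 at 2978 to 4773 reads.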

Other observations

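The pathway lists also held the feedback inhibitors that NF-kB induces to limit itself, which act beside miR-146a. Between the old groups none of them passed the adjusted threshold. The log2 fold changes were 0.12 ± 0.092 for Nfkbia (SE; edgeR adjusted p = 0.695), 0.17 ± 0.111 for Tnfaip3 (SE; edgeR adjusted p = 0.638) and 0.36 ± 0.182 for Irak3, the member of the Irak family that lacks kinase activity (SE; edgeR adjusted p = 0.508). Of the NF-kB subunits, Rela (0.085), Nfkb1 (0.12) and Nfkb2 (0.32) had edgeR adjusted p of 0.654, 0.345 and 0.344. The largest differences that did not pass were those of the cytokine Tnf (1.36 ± 0.531, SE; edgeR adjusted p = 0.338) and the chemokine Ccl4 (1.39 ± 0.421, SE; edgeR adjusted p = 0.164). These genes were picked for mention after their values were seen.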
